A study of Mus musculus with 18 samples.

Results

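The genes described here build and control the contractile apparatus of smooth muscle, the tissue of the myometrium and of vessel walls. They are 35 of the 25791 genes in a table of RNA levels from mouse uterus, found in it by symbol from a named list. All 35 were present. Tests covered the 13898 genes with 1 FPKM or more in 3 or more libraries, 32 of the 35 among them. FPKM counts sequenced fragments relative to transcript length and library size, so that levels of different genes can be set side by side.

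RNA came from cross sections of whole uterus of mice aged 12 weeks, on a mixed 129Sv X C57BL/6 background, either wild-type (WT) or uterine-specific Tsc2-null (KO). The KO mice lack TSC2, a brake on the growth-promoting kinase complex mTORC1. The labels do not name the promoter that drives the deletion, nor whether the deletion reaches smooth muscle. Each genotype was sampled with ovaries present (intact), after oophorectomy at 4 weeks (ovx), and after the same surgery with 8 weeks of a 0.5 mg pellet of 17β-estradiol made to release over 90 days (E2). Each of the 6 groups had 3 libraries, 18 in all, and the labels do not say whether each came from its own animal. The p-values therefore measure the spread between libraries, which may be technical. Estrous stage of the intact mice was not given and cannot be told apart from genotype there.

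Smooth muscle contracts when calcium, let in by voltage-gated channels or released from stores, activates myosin light chain kinase. The kinase phosphorylates the regulatory light chain, and myosin then pulls on actin, until myosin phosphatase removes the phosphate. Thin-filament proteins tune this step, while desmin, filamin, vinculin and their partners carry the force to the cell membrane. Many of these genes share a promoter element, the CArG box, which is bound by serum response factor together with its partner myocardin. In the uterus, oxytocin and other contractants act through receptors on the same cells, and estrogen is known to raise the oxytocin receptor before labour.

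Promoters of 3 members are shown because they hold CArG boxes close to the start site and belong to an actin, a myosin light chain and an adhesion protein whose levels are followed below. The sequences are from RefSeq on GRCm38.p6, are read 5′ to 3′ on the gene's strand and end at the base before the start site. Capitals mark each CArG box, including those with 1 other base in the 6-base core.
Acta2, chr19:34255374-34255623, minus strand: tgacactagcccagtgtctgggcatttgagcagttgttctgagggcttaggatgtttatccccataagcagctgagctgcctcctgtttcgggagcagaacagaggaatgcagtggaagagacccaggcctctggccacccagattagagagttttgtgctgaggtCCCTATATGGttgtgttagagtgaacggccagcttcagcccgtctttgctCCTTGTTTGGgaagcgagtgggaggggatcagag
Myl9, chr2:156775214-156775463, plus strand: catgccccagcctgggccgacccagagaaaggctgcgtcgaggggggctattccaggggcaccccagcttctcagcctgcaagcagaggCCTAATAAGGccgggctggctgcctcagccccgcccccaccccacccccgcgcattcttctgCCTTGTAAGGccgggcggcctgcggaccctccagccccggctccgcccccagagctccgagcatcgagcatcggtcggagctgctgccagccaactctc
Vcl, chr14:20929148-20929397, plus strand: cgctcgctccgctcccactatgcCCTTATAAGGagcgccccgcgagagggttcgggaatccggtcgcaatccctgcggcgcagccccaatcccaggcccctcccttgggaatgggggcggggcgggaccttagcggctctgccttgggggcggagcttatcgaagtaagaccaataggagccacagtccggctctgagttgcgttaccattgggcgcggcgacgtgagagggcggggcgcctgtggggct

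The boxes of Acta2 begin at base -84 and base -34 from the start site and each has 1 other base in the core. In Myl9 an exact box begins at base -161 and a box with 1 other base at base -99, and in Vcl an exact box begins at base -227. RefSeq promoters, from 250 bases before to 50 bases after the start, were matched for 30 of the 35 members, with 35 start sites. The members without a match were Actg2, Myh11, Tagln, Myocd and Nexn. An exact CArG box was in 2 of these 35 promoters, or 5.71%, against 1.63% of all 32851 promoters in the table. With 1 other base allowed in the core, 7 of 35 (20%), from 6 members, held one, against 9.98% of all. The full estrogen response element, GGTCA and TGACC with 3 bases between them, was in 0 of the 35 and in 0.07% of all promoters. Its half-site GGTCA, searched on both strands, was in 22.9% of the members' promoters and in 40.5% of all. These matches describe letters in short windows and not binding.

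The tissue expressed smooth muscle genes in every library. The smooth muscle actin gene Acta2 had a mean of 225 FPKM over the 18 libraries, its enteric isoform Actg2 had 179, and both exceeded 21 FPKM in the lowest library. Library sums of FPKM ran from 216032 to 591668 and genes at 0 from 4228 to 7395, and read totals were not given. The step pattern of low values sorted the libraries into 4 sets, a number chosen for the clustering and not found by it. The sets rest on the values alone, as no label or header names a batch. Within a set, relative depth ran from 0.376 to 1. Tsc2 itself had mean levels of 2.27 FPKM in WT and 1.83 in KO intact, 3.30 and 2.90 in ovx, and 2.59 and 2.15 in E2 libraries. WT and KO libraries did not overlap in intact uteri, at 2.04 to 2.51 and 1.62 to 1.98 FPKM. They overlapped in ovx (3.17 to 3.49 and 2.39 to 3.33) and in E2 (2.38 to 2.73 and 1.75 to 2.42). No test of Tsc2 is given here. How far Tsc2 was lost, and whether from some of the cells of a whole uterus or partly from all, cannot be told from these levels.

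The members largely moved together from library to library. WT intact replicate 4 was the lowest of all 18 libraries for 26 of the 35 members and the lowest of its group for 31. In KO intact replicate 4 and in KO ovx replicate 4, 33 members were at the lowest level of the group, as were 31 in WT E2 replicate 5. WT intact replicate 2 was the highest of its group for 32 members and KO ovx replicate 2 for 31. By group mean, KO intact was the highest group for 24 members and WT ovx for 8, while KO E2 was the lowest for 17 and WT intact for 15. In whole tissue, fewer smooth muscle cells and less RNA per cell cannot be told apart.

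**Figure D1:**
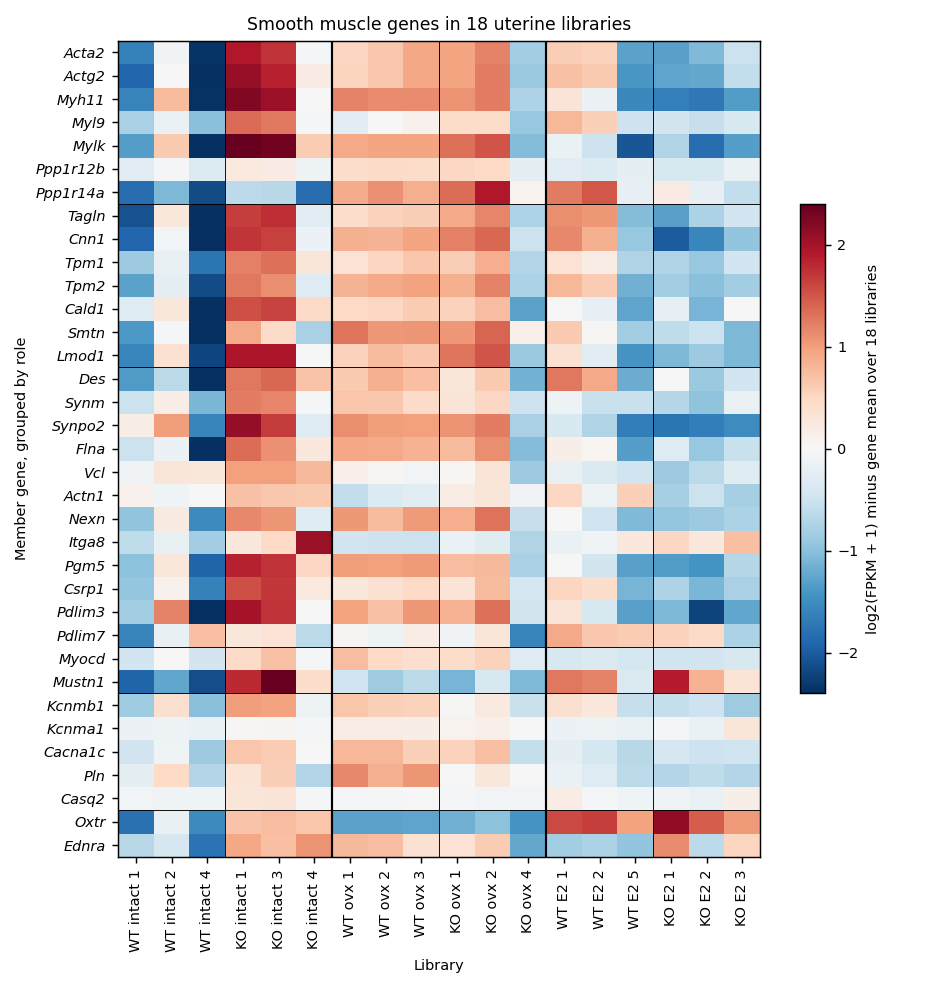
The 35 members (rows, in blocks by role) in the 18 libraries (columns, in blocks by hormone state), coloured by log2(FPKM + 1) minus the gene's mean over all libraries. Most rows darken and pale together, with KO intact replicates 1 and 3 high and WT intact replicate 4 low, while the Oxtr row is high in all 6 E2 libraries.

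Actin and myosin genes made up the largest part of this RNA. Acta2 stood at 53.9, 157 and 31.9 FPKM in WT intact replicates 1, 2 and 4 and at 639, 556 and 165 in KO intact replicates 1, 3 and 4. In ovx libraries it stood at 240, 263 and 321 in WT and 323, 383 and 94.8 in KO, and in E2 libraries at 253, 246 and 68.1 in WT and 67.4, 80.0 and 117 in KO. The intact genotypes did not overlap, and the 3 KO E2 libraries were all below the 3 WT ovx libraries. Actg2, the other smooth muscle actin, kept a near-constant ratio to Acta2, from 0.615 to 0.887 over the 18 libraries. Myh11, the smooth muscle myosin heavy chain, was at 6.32, 36.6 and 3.29 FPKM in WT intact and at 103, 91.4 and 21.2 in KO intact libraries. It was at 49.5, 47.7 and 47.9 in WT ovx, 46.1, 51.0 and 12.3 in KO ovx, 26.6, 19.1 and 6.62 in WT E2 and 6.15, 5.78 and 7.79 in KO E2. WT ovx held the tightest values, and KO ovx replicate 4 lay within the range of the E2 libraries. Myh11 was lower in every E2 library than in any WT ovx library.

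The light chain, its kinase and the phosphatase regulators differed in how far they varied. Myl9, the regulatory light chain, was at 102, 156 and 85.9 FPKM in WT intact, 451, 422 and 170 in KO intact, 146, 172 and 188 in WT ovx and 236, 235 and 92.4 in KO ovx. In E2 libraries Myl9 was at 301, 260 and 123 in WT and 129, 118 and 136 in KO. The kinase gene Mylk was at 7.97, 33.9 and 2.68 FPKM in WT intact, 117, 110 and 33.3 in KO intact, 41.1, 42.6 and 42.6 in WT ovx, 55.1, 63.2 and 9.95 in KO ovx, 19.1, 15 and 4.45 in WT E2 and 12.7, 5.32 and 8.00 in KO E2. Mylk in WT E2 was below all WT ovx libraries, whereas Myl9 overlapped them. Ppp1r14a encodes CPI-17, which inhibits myosin phosphatase, and had another order of groups, with means of 0.695 and 1.70 FPKM in WT and KO intact, 9.04 and 11.7 in ovx and 9.49 and 3.64 in E2. All 6 intact libraries, at 0.172 to 2.37 FPKM, were below all 12 ovx and E2 libraries. Ppp1r12b, a targeting subunit of myosin phosphatase, stayed under 1 FPKM in every library, from 0.0409 to 0.935, and was not tested.

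Acta1, the skeletal muscle actin, and Actc1, the cardiac one, were also high and followed Acta2. Acta1 ran from 113 to 1078 FPKM, or 1.30 to 3.56 times Acta2 in the same library, and Actc1 from 0.752 to 1.33 times. Of the 13 other skeletal muscle genes listed, 4 exceeded 2 FPKM in some library: Ckm, the muscle creatine kinase, at 1.42 to 51.7, the light chain Myl1 at 7.69 to 19.2, the troponin Tnni2 at 0.469 to 15.5 and Actn3 at 3.15 to 10.4. The highest value of the other 9 was 1.25 FPKM, in Tnnt3, and the giant sarcomere protein genes Ttn and Neb had at most 0.0108 and 0.0160. Stretches of 50 bases within 2 mismatches of another actin made up 0.403% of Acta2 windows against Acta1, 2.41% of Actg2 windows against Acta1 and 3.97% of Actg2 windows against Actc1. Against the cytoplasmic actins Actb and Actg1 the shares were 0.655% and 1.41% for Acta2 and 0.312% and 0.0779% for Actg2. They were 6.73% and 2.93% for Acta1 and 1.12% and 0% for Actc1. How the authors' counting assigned reads between actins was not tested, so each actin level is uncertain by an amount that these shares do not give.

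**Figure D2:**
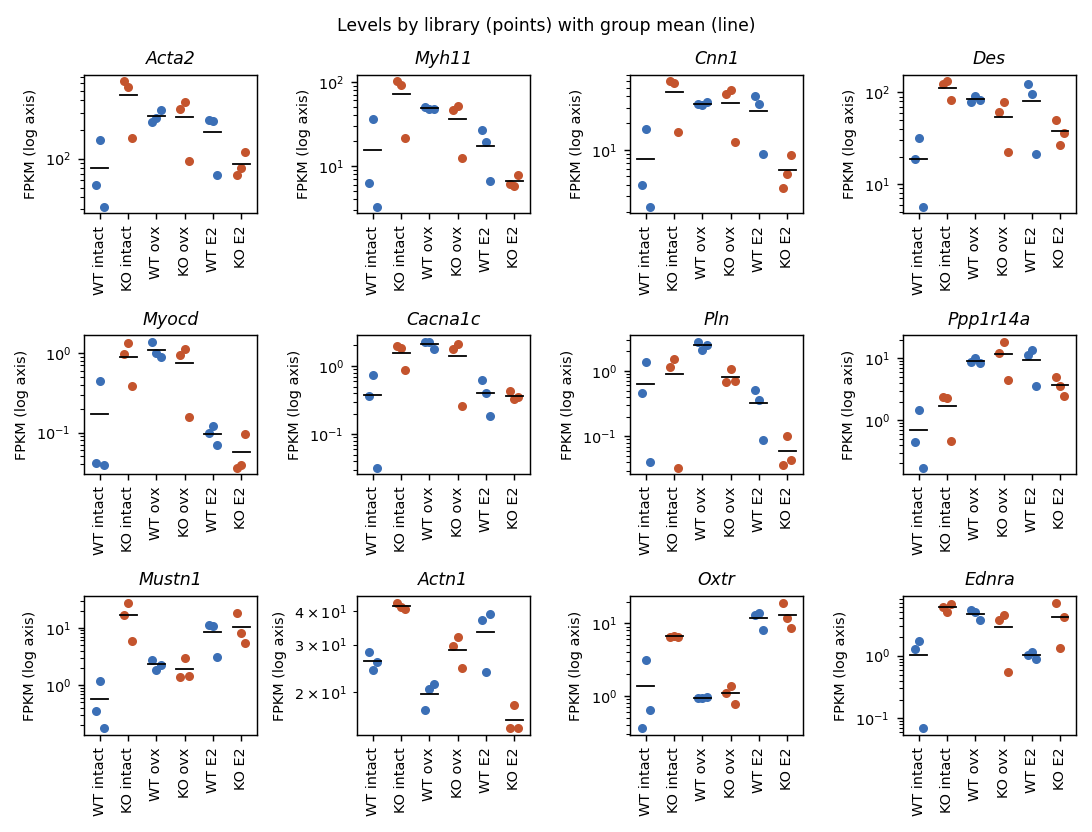
FPKM (log axis) of 12 members in each library, as blue points for WT and orange points for KO, with a line at each group mean (n = 3). Acta2, Myh11, Cnn1 and Des have their highest group means in KO intact, while Oxtr is near 1 FPKM in ovx and above 8 in E2 libraries, and Actn1 in E2 is lower in KO than in WT.

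Among thin-filament proteins, 5 of 7 had their highest group mean in KO intact, as the actins did, while Tpm2 and Smtn had it in WT ovx. Cnn1, or calponin, which restrains the myosin ATPase on actin, was at 4.02, 17.0 and 2.27 FPKM in WT intact, 60.1, 57.5 and 16 in KO intact, 32.6, 31.9 and 35 in WT ovx and 42.1, 47.7 and 12.2 in KO ovx. In E2 libraries Cnn1 was at 40.4, 33.0 and 8.91 in WT and at 3.66, 5.36 and 8.69 in KO. Every KO E2 library was below every WT E2 library for this gene, by a small margin against replicate 5. Tagln, also called SM22 and an actin-binding protein, ranged from 7.94 to 219 FPKM over all libraries, the tropomyosins Tpm1 and Tpm2 from 28.6 to 251 and from 6.17 to 75.1. Caldesmon (Cald1), which inhibits the actomyosin ATPase, ranged from 2.81 to 61.3, smoothelin (Smtn), a marker of contractile cells, from 0.657 to 28.6, and the actin nucleator leiomodin (Lmod1) from 0.334 to 22.6. WT intact replicate 4 held the lowest value for each of these 6 genes.

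Intermediate filament and adhesion genes were measured over a similar span. Des encodes desmin, the muscle intermediate filament, and was at 19.0, 32.0 and 5.70 FPKM in WT intact, 123, 134 and 81.6 in KO intact, 78.8, 91.9 and 83.5 in WT ovx, 61.7, 78.4 and 22.5 in KO ovx, 123, 95.3 and 21.5 in WT E2 and 49.9, 26.8 and 36.4 in KO E2. All WT intact values were below all KO intact and WT ovx values. The desmin partner synemin (Synm) ranged from 0.199 to 5.01 FPKM, synaptopodin 2 (Synpo2) from 0.444 to 19.9, filamin A (Flna), which crosslinks actin, from 4.54 to 87.6, and nexilin (Nexn) from 0.0747 to 6.67. Among genes of adhesion sites, vinculin (Vcl) ranged from 5.12 to 21.3, alpha-actinin 1 (Actn1) from 14.6 to 43.0, the integrin subunit Itga8 from 0.0428 to 6.77 and Pgm5 (aciculin) from 0.455 to 18.8. The LIM-domain genes Csrp1, Pdlim3 and Pdlim7 ranged from 27.6 to 282, 1.83 to 64.7 and 3.39 to 24.1 FPKM. Vcl and Actn1, made in many cell types, had the narrowest spans of the 12.

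Myocd, the coactivator of serum response factor, was near or below 1 FPKM throughout. It was at 0.0410, 0.440 and 0.0387 FPKM in WT intact, 0.981, 1.33 and 0.384 in KO intact, 1.39, 0.987 and 0.901 in WT ovx, 0.952, 1.11 and 0.155 in KO ovx, 0.0974, 0.121 and 0.0697 in WT E2 and 0.0363, 0.0391 and 0.0961 in KO E2. All 6 E2 libraries were below all 6 ovx libraries. Myocd passed the filter with only 3 libraries at 1 FPKM or more: WT ovx replicate 1, KO ovx replicate 2 and KO intact replicate 3. It was therefore tested only through groups where it was high, and its lower level in E2 is to be read with that limit. Mustn1, a nuclear protein of muscle and skeletal tissue, was at 0.357, 1.16 and 0.174 in WT intact, 16.8, 27.6 and 5.89 in KO intact, 2.72, 1.86 and 2.27 in WT ovx, 1.36, 2.96 and 1.46 in KO ovx, 11.4, 10.8 and 3.05 in WT E2 and 17.9, 8.13 and 5.47 in KO E2. Unlike Acta2 and Myh11, Mustn1 was high in both E2 groups and in KO intact, and lowest in WT intact.

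Ion channels and calcium store proteins were low. Kcnmb1, the smooth muscle subunit of the BK potassium channel, was at 0.265, 1.98 and 0.152 FPKM in WT intact, 3.60, 3.45 and 1.10 in KO intact, 2.64, 2.4 and 2.35 in WT ovx, 1.33, 1.68 and 0.587 in KO ovx, 2.01, 1.72 and 0.557 in WT E2 and 0.538, 0.626 and 0.264 in KO E2. Kcnma1, the pore of the same channel, reached at most 0.400 FPKM, and Casq2, a calcium buffer of the sarcoplasmic reticulum, 0.391, and neither was tested. Cacna1c, the pore of the L-type calcium channel, had means of 0.381 and 1.57 FPKM in WT and KO intact, 2.10 and 1.38 in ovx and 0.402 and 0.369 in E2. Pln, or phospholamban, which restrains the calcium pump of the sarcoplasmic reticulum, was at 0.453, 1.36 and 0.0411 in WT intact, 1.13, 1.54 and 0.0335 in KO intact, 2.78, 2.04 and 2.51 in WT ovx, 0.676, 1.05 and 0.698 in KO ovx, 0.512, 0.355 and 0.0894 in WT E2 and 0.0366, 0.101 and 0.0439 in KO E2. Pln was the highest in WT ovx, where no library overlapped any other group.

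The receptors departed from the other members. Oxtr, the oxytocin receptor, was at 0.354, 3.14 and 0.627 FPKM in WT intact, 6.55, 6.80 and 6.46 in KO intact, 0.934, 0.936 and 0.965 in WT ovx, 1.10, 1.38 and 0.759 in KO ovx, 13, 13.9 and 8.13 in WT E2 and 19.4, 11.9 and 8.52 in KO E2. All 6 E2 libraries were above all other libraries, the 3 KO intact libraries came next, and ovx and WT intact libraries overlapped. Ednra, the endothelin receptor A, was at 1.29, 1.74 and 0.0692 in WT intact, 5.93, 5.03 and 6.67 in KO intact, 5.25, 5.05 and 3.71 in WT ovx, 3.65, 4.51 and 0.549 in KO ovx, 1.04, 1.15 and 0.884 in WT E2 and 7.02, 1.34 and 4.20 in KO E2. In the E2 state every KO library was above every WT library for Ednra, by a small margin in KO replicate 2 (1.34 against at most 1.15).

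The next results compare groups in a linear model of log2(FPKM + 1) over all 18 libraries (limma). A gene is called when its p-value, adjusted by the Benjamini-Hochberg method over the 13898 genes, is under 0.05, and fold changes are log2 differences ± the standard error (SE) of the model. This scale understates the fold of genes with low levels.

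In intact uteri, 6 members with roles in adhesion, filaments, the nucleus and oxytocin sensing rose in KO against WT. Of 32 members tested, 6 rose and 0 fell, where 1.19% of all genes tested rose, 0.993% fell and 2.18% were called in all. The largest of the 6 differences was that of Mustn1, from a mean of 0.564 to 16.8 FPKM (log2 3.33 ± 0.52, adjusted p = 0.00507). Des rose by 2.76 ± 0.63 (adjusted p = 0.0395), Pgm5 by 2.23 ± 0.54 (adjusted p = 0.0452) and Tpm1 by 1.88 ± 0.45 (adjusted p = 0.0423). Oxtr rose from 1.37 to 6.6 FPKM, by 1.86 ± 0.35 (adjusted p = 0.0136), and Itga8 by 1.47 ± 0.35 (adjusted p = 0.0423). The members had a median difference of 1.87, against -0.04 over all genes tested. All 32 differences were positive, down to 0.22 ± 0.30 for Pln, and in 16 members the libraries did not overlap, with KO above WT, as in 10.3% of all genes.

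Differences of the actins and myosin were as large but missed the threshold. They were 2.57 ± 0.68 for Acta2 (adjusted p = 0.0633), 2.86 for Actg2 (adjusted p = 0.0518) and 2.5 ± 0.76 for Myh11 (adjusted p = 0.0983). Single libraries decided the number of calls. Leaving out WT intact replicates 1, 2 and 4 in turn gave 5, 19 and 1 calls, and leaving out KO intact replicates 1, 3 and 4 gave 2, 1 and 9. Mustn1 alone was called whichever of the 6 libraries was left out (adjusted p up to 0.0303), while Oxtr reached 0.0688, Des 0.161, Tpm1 0.185, Itga8 0.155 and Pgm5 0.190. With a fit to the 6 intact libraries alone, 0 members were called. Within the sets of libraries, the median of the members was 2.18 in set 1 (2 libraries against 2) and 1.18 in set 2 (1 against 1).

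Markers of other cell types moved beside these genes. Summed over 8 genes of pericytes and vascular mural cells, levels were 29.7 to 36.5 FPKM in KO intact and 1.47 to 13.3 in WT intact libraries, with 1 of the 8 called higher. Over 8 blood endothelium genes the sum was 25.1 to 63.8 against 1.99 to 15, with 3 of 8 called higher. Over 10 uterine epithelium genes it was 190 to 409 in KO and 487 to 2254 in WT intact, with 1 of 10 called lower. The list of 10 endometrial stroma genes overlapped, at 402 to 436 in KO and 59.2 to 529 in WT. The part of these cell types in the differences of the members was not tested.

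**Figure D3:**
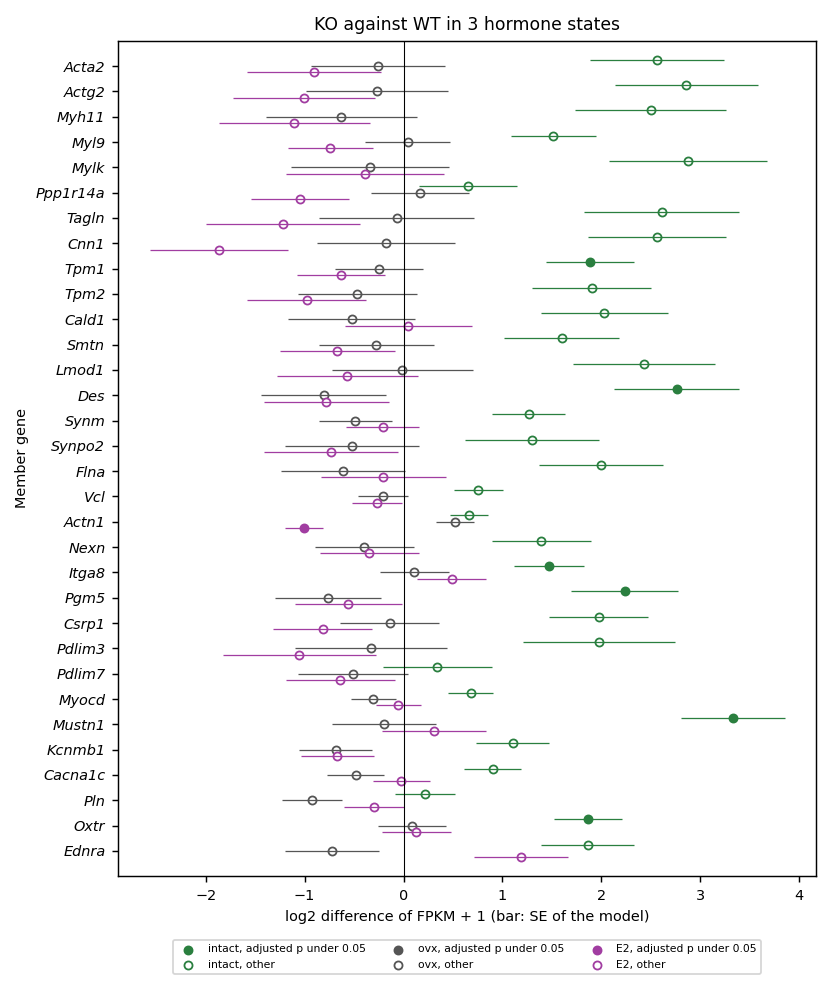
KO minus WT as a log2 difference of FPKM + 1 for the 32 members tested, in intact (green), ovx (grey) and E2 (purple) uteri, with bars of 1 SE and filled points for an adjusted p under 0.05. All intact points lie right of 0, with 6 filled, while most ovx and E2 points lie left of 0 and only Actn1 in E2 is filled among them.

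Without ovaries, no member passed the test between genotypes. In limma 0 of 32 members were called in ovx uteri, where 5.42% of all genes were, 4.63% higher and 0.791% lower, and 2 members had an unadjusted p under 0.05. These were Pln (-0.93 ± 0.30, adjusted p = 0.0899) and Actn1 (0.52 ± 0.19, adjusted p = 0.129). The libraries of Pln, Des, Pgm5 and Kcnmb1 did not overlap, with KO lower, and those of Actn1 did not, with KO higher. Over all genes, libraries were apart with KO lower at 13.4% and with KO higher at 26.8%. The median of the members was -0.32, against 0.09 over all genes. Under quantile normalization 1 member was called, Pln, and 1 was called in a fit to the 6 ovx libraries alone. KO ovx replicate 4 was low for most members, and leaving it out, or any other ovx library, also gave 0 calls.

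Under E2, Actn1 fell in KO against WT. This alpha-actinin crosslinks actin at adhesion sites and dense bodies. Its levels were 37.1, 23.8 and 39.0 FPKM in WT and 14.6, 17.9 and 14.7 in KO E2 libraries, which did not overlap (-1.01 ± 0.19, adjusted p = 0.00500). The call held without each of the 6 libraries, with an adjusted p up to 0.0332, but was lost in a fit to the E2 libraries alone (adjusted p = 0.161). It was the 1 call among 32 members, where 8.49% of all genes were called, 4.91% higher and 3.58% lower. Libraries were apart with KO higher in 1 member (10.4% of all genes) and with KO lower in 3 (12.1%). The median of the members was -0.63, against -0.05 over all genes. Cnn1 missed the threshold (-1.87 ± 0.70, adjusted p = 0.119), as did Ednra (1.19 ± 0.47, adjusted p = 0.144).

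The E2 medians went opposite ways within sets of libraries, at -0.92 in set 4 (2 libraries against 2) and 0.28 in set 3 (1 against 1). Actn1 was lower in KO in both sets, by -0.84 and -1.36. Leukocyte markers summed to 1769 to 14350 FPKM over 6 genes in KO E2 and to 98.6 to 647 in WT E2 libraries, with 2 of 6 called higher. Adipocyte markers, 7 genes, summed to 439.5, 4.93 and 2403 FPKM in KO E2 replicates 1, 2 and 3. They summed to 2.75 to 47.5 in WT E2, with 0 of 6 tested called. Of 10 uterine epithelium genes 2 were called lower (293 to 2406 in KO against 930 to 2840 in WT). Stroma markers summed to 188 to 1015 against 144 to 205, with 0 of 10 called. The part of these cell types in the result was not tested. Averaged over the 3 states, Mustn1 was the 1 member called, higher in KO by 1.15 ± 0.30 (adjusted p = 0.0377), where 5.90% of all genes were called, 4.17% higher and 1.73% lower. That call ended without any of 10 of the 18 libraries, with an adjusted p of at most 0.0784: WT intact 4, KO intact 1 and 3, WT ovx 1, 2 and 3, KO ovx 1 and 2, WT E2 5 and KO E2 1.

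The oxytocin receptor gene was higher under E2 than in ovx uteri of both genotypes, while the medians of the members were below 0. Oxtr rose from a mean of 0.945 FPKM in WT ovx to 11.7 in WT E2 (2.67 ± 0.35, adjusted p = 9.97e-05) and from 1.08 to 13.3 in KO (2.72 ± 0.35, adjusted p = 5.52e-05). Mustn1 rose by 1.36 ± 0.52 in WT (adjusted p = 0.0430) and by 1.87 ± 0.52 in KO (adjusted p = 0.0162). Both comparisons have their own control libraries. Among the WT genes that fell were Pln (-1.39 ± 0.30, adjusted p = 0.00204), Cacna1c (-1.15 ± 0.29, adjusted p = 0.00485) and Myocd (-0.93 ± 0.23, adjusted p = 0.00429). The first 2 handle calcium, and the last is the coactivator of serum response factor. In E2 libraries all 3 stayed under 1 FPKM, so they passed the filter only through intact and ovx libraries. The part of Myocd in the levels of the other members was not tested.

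In WT, 11 of 32 members were called, 3 higher and 8 lower, where 47.5% of all genes were called, 32.3% higher and 15.2% lower. The third that rose was Actn1 (0.71 ± 0.19, adjusted p = 0.00801). The linker genes Synpo2 (-1.94 ± 0.68, adjusted p = 0.0290), Pgm5 (-1.60 ± 0.54, adjusted p = 0.0246), Nexn (-1.45 ± 0.50, adjusted p = 0.0270) and Synm (-0.98 ± 0.37, adjusted p = 0.0387) fell, as did Ednra (-1.48 ± 0.47, adjusted p = 0.0185). The median of the members was -0.78, against 0.24 over all genes. In 18 members WT E2 libraries were all below WT ovx libraries, as in 23.3% of all genes, and in 5 all above, as in 43.5%. Acta2 and Myh11 missed the threshold (-0.75 ± 0.68, adjusted p = 0.381, and -1.61 ± 0.76, adjusted p = 0.0933).

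The WT calls depended on scaling and on single libraries. Median-ratio scaling moved the median gene from 0.24 to 0.10 and gave 2 members higher and 8 lower. Quantile normalization moved it to -0.05 and gave 1 higher and 17 lower, with Actn1 turned to -0.34 (adjusted p = 0.266). The count was 5 to 10 when 1 library was left out: 5 without WT ovx replicate 1, 6 without WT ovx replicate 2 or 3 or WT E2 replicate 5, 7 without WT E2 replicate 2 and 10 without WT E2 replicate 1. Oxtr, Actn1, Myocd, Cacna1c and Pln were called without each library. Within sets, the member medians were -1.64 in set 3 (1 E2 against 2 ovx libraries) and -0.28 in set 4 (2 against 1), and Oxtr was higher by 2.23 and 2.90.

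Markers of other cell types also differed between E2 and ovx uteri of WT mice. Of 10 uterine epithelium genes 7 were called higher (summed levels 930 to 2840 FPKM in E2 and 82.6 to 148 in ovx), as were 4 of 6 leukocyte genes (98.6 to 647 against 24.7 to 42.5). Called lower were 6 of 10 stroma genes (144 to 205 against 515 to 606), 5 of 8 endothelial genes (10.04 to 12.5 against 31.1 to 36.0) and 4 of 8 mural genes (9.23 to 9.55 against 30.1 to 34.9). In KO, 6 of 6 leukocyte genes were called higher (1769 to 14350 against 18.5 to 752, the last in KO ovx replicate 4). Called higher and lower in KO were 0 and 1 of 10 epithelium genes and 2 and 1 of 10 stroma genes. They were 1 and 0 of 8 endothelial genes and 1 and 1 of 8 mural genes. Of 6 adipocyte genes tested, 1 was called higher in KO and 0 in WT, with list medians of 2.26 and 0.58. Adipocyte sums were 439.5, 4.93 and 2403 FPKM in KO E2 replicates 1, 2 and 3. In KO ovx replicates 1, 2 and 4 they were 0.268, 0.163 and 144. List medians in KO and WT were -0.18 and 2.95 for epithelium and 0.85 and -1.60 for stroma. They were 0.55 and -1.07 for endothelium and 0.10 and -0.92 for mural genes. The part of these cell types in the E2 differences of the members was not tested.

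In KO, 6 of 32 members were called, 2 higher and 4 lower, where 27.1% of all genes were called, 15.9% higher and 11.2% lower. Cnn1 fell by 2.20 ± 0.70 on the log2 scale (adjusted p = 0.0303), Synpo2 by 2.15 ± 0.68 (adjusted p = 0.0296), Actn1 by 0.83 ± 0.19 (adjusted p = 0.00583) and Myocd by 0.67 ± 0.23 (adjusted p = 0.0396). The median was -0.90, against 0.07 over all genes. In 11 members KO E2 libraries were all below KO ovx libraries, as in 15.9% of all genes, and in 3 all above, as in 20.4%. KO ovx replicate 4, which was low for most members, held the count down: without it 20 members were called, 2 higher and 18 lower. This library also had the highest adipocyte (144 FPKM) and leukocyte (752 FPKM) sums of its group. The part of these cell types in its low levels was not tested. The count was 2 without KO ovx replicate 1 or KO E2 replicate 1, 3 without KO ovx replicate 2 or KO E2 replicate 2 and 4 without KO E2 replicate 3. Quantile normalization gave 3 higher and 14 lower. Oxtr and Actn1 were called without each library. In set 3, the only set with both states in KO, the median was -0.86 (1 library against 3).

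**Figure D4:**
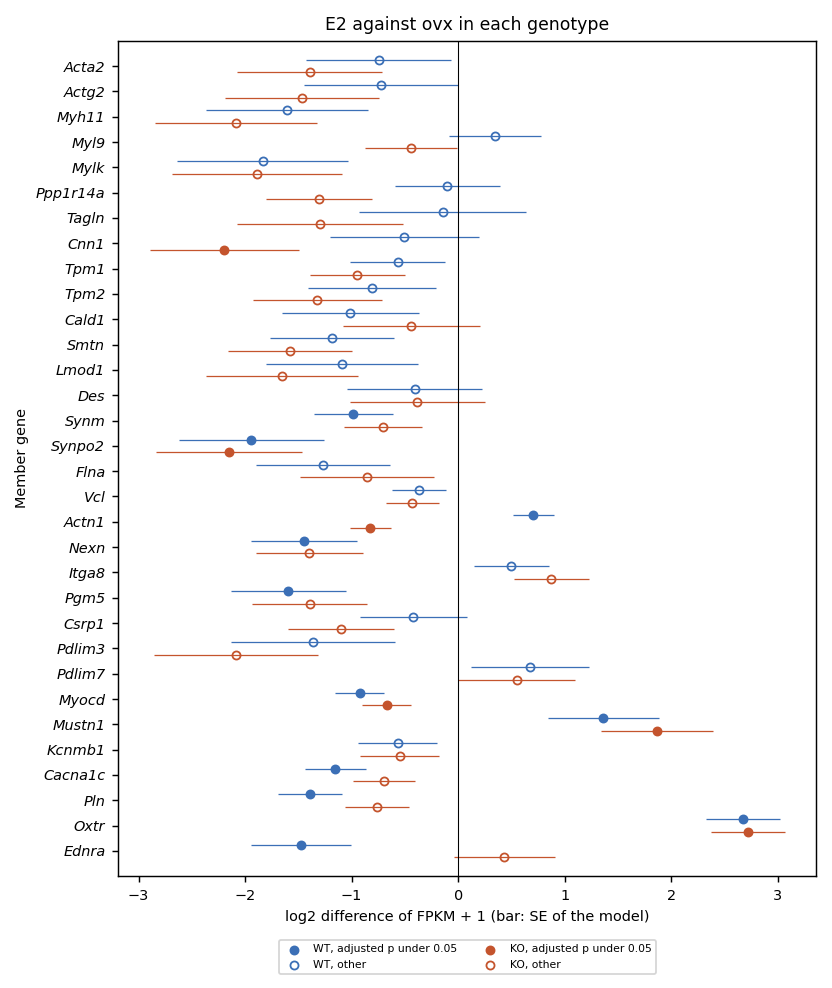
E2 minus ovx as a log2 difference of FPKM + 1 for the 32 members tested, in WT (blue) and KO (orange), with bars of 1 SE and filled points for an adjusted p under 0.05. Oxtr and Mustn1 lie to the right in both genotypes, Actn1 lies right of 0 in WT (0.71) and left of 0 in KO (-0.83), and most other points lie left of 0.

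The estradiol response of Actn1 differed between genotypes. Its mean went from 19.7 to 33.3 FPKM in WT and from 28.8 to 15.7 in KO, and the difference of the 2 responses was -1.53 ± 0.27 (adjusted p = 0.00516). It was the 1 member called in that test, where 11.0% of all genes were called, 4.05% higher and 6.95% lower, and it was called whichever of the 12 libraries was left out (adjusted p up to 0.0204). Under quantile normalization its adjusted p was 0.0539 and Ednra was called instead (1.99, adjusted p = 0.0492). In the main fit the Ednra difference was 1.91 (adjusted p = 0.0772). It was 0.41 without the 4 libraries with adipocyte markers, named below, which leaves 1 KO E2 library. The Oxtr responses differed by 0.04 ± 0.49 (adjusted p = 0.966). Actn3, a skeletal muscle paralog, had 0.195 to 0.348 times the level of Actn1, and 0.597% of Actn1 windows of 50 bases matched it within 2 mismatches. Another paralog, Actn4, matched 1.87% of Actn1 windows.

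Most members were lower in WT uteri with ovaries than without. Of 32 members 20 fell and 0 rose in intact against ovx WT libraries, where 15.4% of all genes fell, 29.9% rose and 45.3% were called. Ppp1r14a fell from 9.04 to 0.695 FPKM (-2.64 ± 0.50, adjusted p = 0.000955), Smtn from 23.6 to 4.59 (-2.53 ± 0.58, adjusted p = 0.00332) and Des from 84.8 to 18.9 (-2.38 ± 0.63, adjusted p = 0.00781). Cnn1 (-2.36 ± 0.70, adjusted p = 0.0138) and Myh11 (-2.22 ± 0.76, adjusted p = 0.0277) also fell, with 5 of 6 tested actin, myosin and activator genes, 5 of 7 thin-filament genes and 3 of 3 channel and store genes lower. Oxtr did not pass the test (0.10 ± 0.35, adjusted p = 0.834). The median was -1.51, against 0.21 over all genes, and in 24 members the intact libraries were all below the ovx libraries, as in 21.0% of all genes, and in 1 all above, as in 40.0%.

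WT intact replicate 4 weighed most on this count. Its title carries a compound number, of which 4 was taken as the replicate. Without it 6 members were called, namely Ppp1r14a, Smtn, Des, Cacna1c, Pln and Myocd, which were called without each other library too. Leaving out WT intact replicates 1 and 2 in turn gave counts of 13 and 24, and leaving out WT ovx replicates 1, 2 and 3 gave 11, 13 and 14. Every intact library lies in sets 1 and 2 and every other library in sets 3 and 4, so that the presence of ovaries and the set of libraries cannot be told apart. Uterine epithelium markers summed to 487 to 2254 FPKM in WT intact and 82.6 to 148 in WT ovx libraries, with 7 of 10 called higher. Endothelial and mural sums were lower, at 1.99 to 15 against 31.1 to 36.0 and at 1.47 to 13.3 against 30.1 to 34.9, with 7 of 8 and 5 of 8 called lower. WT intact replicate 4 held the highest of these epithelium sums and the lowest of these endothelial and mural sums. The part of these cell types was not tested.

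In KO the same comparison gave another picture. Mustn1 (2.42 ± 0.52, adjusted p = 0.00602), Oxtr (1.88 ± 0.35, adjusted p = 0.00211), Itga8 (1.32 ± 0.35, adjusted p = 0.0194) and Vcl (1.09 ± 0.25, adjusted p = 0.00882) rose in intact against ovx libraries. Ppp1r14a fell, from 11.7 to 1.70 FPKM (-2.15 ± 0.50, adjusted p = 0.00900). These 5 of 32 compare with 15.9% of all genes called, 7.14% higher and 8.74% lower, and the median was 0.68 against 0.09. In 7 members the intact libraries were all above the ovx libraries, as in 23.2% of all genes, and in 1 all below, as in 17.9%. Mustn1, Oxtr and Vcl were called without each library. The call of Itga8 ended without KO ovx replicate 4 (adjusted p = 0.0530), and that of Ppp1r14a without KO intact replicate 4 (0.0510) or KO ovx replicate 2 (0.0516), as adjusted p.

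The effect of ovaries on 4 members differed between genotypes by a test of the difference. The differences, KO minus WT, were 3.57 ± 0.90 for Des (adjusted p = 0.0372), 3.53 ± 0.74 for Mustn1 (adjusted p = 0.0192), 3.00 ± 0.76 for Pgm5 (adjusted p = 0.0391) and 2.58 ± 0.67 for Ednra (adjusted p = 0.0408). In this test 4.63% of all genes were called, 1.02% with a positive difference and 3.60% with a negative one, and the median of the members was 2.12 against -0.14. For Oxtr the difference was 1.78 ± 0.49 (adjusted p = 0.0512). With the set of libraries as a term, Mustn1 and Pgm5 were called, while Des (adjusted p = 0.0542) and Ednra (adjusted p = 0.0707) were not. Leaving out WT intact replicates 1, 2 and 4 in turn gave counts of 4, 17 and 1, and leaving out KO intact replicates 1, 3 and 4 gave 0, 0 and 6. For WT ovx replicates 1, 2 and 3 the counts were 0, 1 and 1, and for KO ovx replicates 1, 2 and 4 they were 1, 11 and 0.

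E2 and intact uteri were set side by side as 2 forms of estrogen supply, with sets of libraries and ovaries again not separable. In WT, Oxtr (2.57 ± 0.35, adjusted p = 0.000179), Ppp1r14a (2.53 ± 0.50, adjusted p = 0.00340) and Mustn1 (2.47 ± 0.52, adjusted p = 0.00575) rose in E2 and 0 members fell. These 3 of 32 were called without each library, where 13.9% of all genes were called, 9.92% higher and 4.01% lower. The median was 0.65 against -0.02 over all genes. Libraries were apart with E2 higher in 4 members (17.6% of all genes) and lower in 1 (10.7%). The count was 7 without WT intact replicate 2 or WT E2 replicate 5.

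In KO, 19 of 32 members fell in E2 against intact libraries and 0 rose, where 10.2% of all genes fell, 15.8% rose and 26.0% were called. Mylk fell by 3.06 ± 0.80 on the log2 scale (adjusted p = 0.0114), Myh11 by 2.99 ± 0.76 (adjusted p = 0.0100), Synpo2 by 2.80 ± 0.68 (adjusted p = 0.00753), Pdlim3 by 2.77 ± 0.77 (adjusted p = 0.0165) and Cnn1 by 2.58 ± 0.70 (adjusted p = 0.0141). Called without each library were Synpo2, Pgm5 (-2.51), Csrp1 (-2.03), Vcl (-1.52) and Actn1 (-1.36). The median was -1.51 against -0.05, and in 24 members the E2 libraries were all below the intact libraries, as in 19.4% of all genes, and in 2 all above, as in 21.3%. The count was 5 without KO intact replicate 1, 7 without KO intact replicate 3 and 11 and 12 without KO E2 replicates 1 and 2. It was 15, 14 of them lower, without KO E2 replicate 3 and 22 without KO intact replicate 4. Leukocyte markers were called higher in E2 for 6 of 6 genes, with sums of 1769 to 14350 FPKM against 17.2 to 27.3, and adipocyte markers for 5 of 6 tested, with sums of 4.93 to 2403 against 0.309 to 0.981. Their part in the result was not tested. These comparisons share libraries with those of KO against WT and with those against ovx, so their lists of members are not independent of each other.

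Ratios to Myh11 show how the members varied apart from the shared rise and fall. Pgm5 kept the most constant ratio, with a highest value 2.30 times its lowest over 18 libraries, followed by Pdlim3 (3.01 times), Mylk (3.06) and Actg2 (3.11). Oxtr varied 167-fold against Myh11, from 0.0189 to 3.16, and Mustn1 by 98.8-fold. The Oxtr ratio was 0.0189 to 0.0201 in WT ovx, 0.489 to 1.23 in WT E2 and 1.09 to 3.16 in KO E2. Between the 6 E2 and the 6 ovx libraries, the ratio was apart and higher in 11 of 31 members, as in 8.81% of the 13897 other genes tested. These were Acta2, Actg2, Myl9, Tagln, Tpm2, Cald1, Des, Itga8, Pdlim7, Mustn1 and Oxtr. Tagln, for example, was 4.07 to 6.88 times Myh11 in E2 and 1.73 to 3.08 times in the other libraries. In Myocd and Synpo2 the ratio was apart and lower in E2, as in 0.324% of genes.

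Ppp1r14a was the 1 member whose ratio to Myh11 set intact apart from ovx libraries. It was 0.0219 to 0.0717 in the 6 intact libraries, 0.174 to 0.365 in the 6 ovx libraries and 0.312 to 0.808 in the 6 E2 libraries. Over all genes, 0.792% had a ratio lower in intact than in ovx with no overlap. As every ratio rests on Myh11 in the same library, the ratios of one library share its error.

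**Figure D5:**
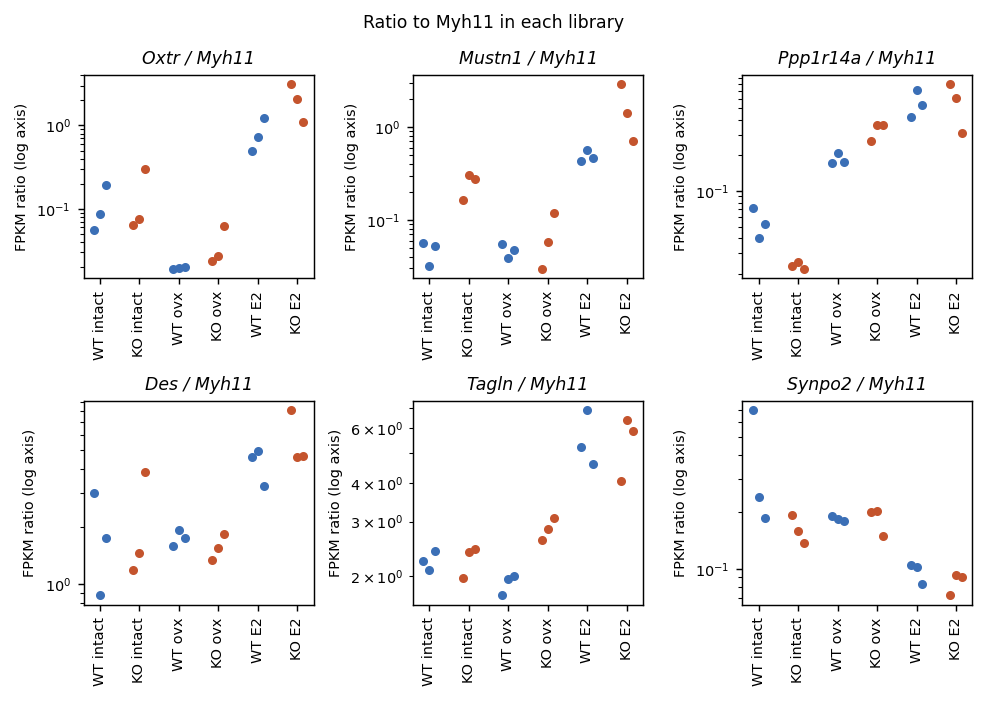
FPKM of 6 members divided by FPKM of Myh11 in the same library (log axis), as blue points for WT and orange points for KO. Oxtr, Mustn1, Des and Tagln have their highest ratios in E2 libraries, Ppp1r14a its lowest in intact libraries, and Synpo2 its lowest in E2 libraries.

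Other genes of smooth muscle signalling and structure formed a list of 39, with 37 tested. In intact KO against WT uteri the median of the list was 0.70. Here 4 rose and 0 fell, where 1.19% of all genes rose and 0.993% fell. Among the 4 were the LIM protein gene Fhl1 (2.67 ± 0.63, adjusted p = 0.0423), Rbpms, an RNA-binding regulator of smooth muscle splicing (1.72 ± 0.38, adjusted p = 0.0310), and the adhesion gene Lpp (0.84 ± 0.18, adjusted p = 0.0300). In ovx and in E2 uteri 0 of 37 were called between genotypes in limma, with medians of -0.19 and -0.03. Over all genes 5.42% and 8.49% were called. Under E2 against ovx, 2 rose and 8 fell in WT and 5 rose and 5 fell in KO. Over all genes 47.5% were called in WT (32.3% higher, 15.2% lower) and 27.1% in KO (15.9% higher, 11.2% lower). Gja1, the main gap junction gene of the myometrium, rose by 1.69 ± 0.41 in WT (adjusted p = 0.00421) and by 3.22 ± 0.41 in KO (adjusted p = 5.79e-05). Ppp1r12a, another myosin phosphatase subunit, fell in both (-1.64 and -1.57), as did the calcium pump gene Atp2b4 (-2.20 and -1.57). In intact against ovx uteri 4 rose and 13 fell in WT, and 6 rose and 0 fell in KO. Over all genes 29.9% rose and 15.4% fell in WT, and 7.14% rose and 8.74% fell in KO. In E2 against intact uteri 2 rose and 2 fell in WT, and 3 rose and 13 fell in KO. Over all genes 9.92% rose and 4.01% fell in WT, and 15.8% rose and 10.2% fell in KO.

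Of 16 further contractant ligands and receptors 7 were tested. Ptgfr, the receptor of prostaglandin F2α, fell in E2 against ovx libraries by 1.58 ± 0.39 in WT (adjusted p = 0.00418) and by 1.64 ± 0.39 in KO (adjusted p = 0.00603), opposite in direction to Oxtr. It also fell in intact against ovx WT libraries (-1.49 ± 0.39, adjusted p = 0.00673). Edn1, which encodes the ligand of EDNRA, rose by 1.16 ± 0.34 under E2 in WT (adjusted p = 0.0121), where Ednra fell. Ptger1, a prostaglandin E2 receptor, fell in intact against ovx libraries in WT (-1.30 ± 0.19, adjusted p = 0.000215) and in KO (-0.86 ± 0.19, adjusted p = 0.00792). Htr2b, a serotonin receptor, was the 1 gene of the list called between genotypes, higher in KO under E2 (1.25 ± 0.35, adjusted p = 0.0363).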

How the data were processed

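The deposited table gives FPKM values for 25791 genes in 18 libraries. The submitters' processing notes name Cufflinks 2.0.2 and Cuffdiff as the authors' tools for FPKM. An aligner, an annotation and a build are not given in the sources used here. These values hold no read totals, so no counting intervals are given. The libraries were stranded TruSeq libraries read from a single end, per the labels' protocols.

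Values were analysed as log2(FPKM + 1), and genes with at least 1 FPKM in at least 3 libraries were tested. A mean per group was fitted to 18 libraries in limma 3.58.1 under R 4.3.3 (eBayes with trend, two-sided), with p-values adjusted by Benjamini-Hochberg over 13898 genes in each of 12 comparisons. Sets of libraries were found by clustering the shared steps of values up to 0.05 FPKM, with the number of sets fixed at 4. The median share of genes was 7.33% within sets (3.56% to 19.65%) and 1.59% between sets (1.11% to 3.98%), so the ranges overlapped. Members and lists were chosen with earlier results of these data known. By rule, 13 exemplars are given by library, and in each comparison up to 5 called members each way, by size of change, and up to 5 genes of the other lists are named in full. Further called members, such as Itga8 in intact KO against WT and Cacna1c, Synm and Myocd in E2 against ovx in WT, were named after their values were seen. Alternatives were another pseudocount (0.1), no filter, median-ratio and quantile scaling, replicate and set terms, compared groups only, and leaving out libraries.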

Additional observations from a re-analysis of the deposited data

Results flagged for a closer look

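5 results differed between the genotypes by a test of the difference itself in limma. The estradiol response of Actn1 (E2 against ovx) differed by -1.53 ± 0.27 (adjusted p = 0.00516). The difference between intact and ovx uteri differed by 3.57 ± 0.90 for Des (adjusted p = 0.0372), 2.58 ± 0.67 for Ednra (adjusted p = 0.0408), 3.53 ± 0.74 for Mustn1 (adjusted p = 0.0192) and 3.00 ± 0.76 for Pgm5 (adjusted p = 0.0391), each more positive in KO. The Actn1 result was called without each of 12 libraries but not under quantile normalization (adjusted p = 0.0539), while each of the other 4 was lost without at least 4 of them, with an adjusted p of up to 0.0968 for Des, 0.110 for Ednra, 0.0617 for Mustn1 and 0.1 for Pgm5. For these 4, ovaries and sets of libraries cannot be told apart within a genotype. A set term could be fitted for the difference between genotypes. With it Mustn1 (3.27, adjusted p = 0.0233) and Pgm5 (2.96, adjusted p = 0.0469) were called. Des (3.29, adjusted p = 0.0542) and Ednra (2.58, adjusted p = 0.0707) were not.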

How the results depend on the processing

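Of 77 calls of members over the comparisons, 27 were made without each library in turn. The counts of members called spanned 1 to 19 for KO against WT in intact, 0 to 0 in ovx, 1 to 2 in E2 and 0 to 4 averaged over states. For E2 against ovx they spanned 5 to 10 in WT and 2 to 20 in KO, for intact against ovx 6 to 24 in WT and 4 to 5 in KO, for E2 against intact 3 to 7 in WT and 5 to 22 in KO, and for the genotype differences 1 to 2 (E2 response) and 0 to 17 (ovaries).

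Other settings moved these counts. In intact KO against WT, 2 members were called with no filter, 0 with the compared groups only and 2 without WT intact replicate 4 and KO ovx replicate 4 (this exclusion and that of the 4 libraries with adipocyte markers were chosen after seeing the data, and the latter, KO ovx replicate 4, WT E2 replicate 2 and KO E2 replicates 1 and 3, leaves 1 KO E2 library, assumed to vary like the other groups). In ovx 1 was called under quantile normalization and 1 with the compared groups only, and in E2 0 with the compared groups only. Averaged over states, 0 were called with no filter, 3 under quantile normalization, 2 with the set term and 0 without the adipocyte-marker libraries. For E2 against ovx in WT, 18 were called under quantile normalization and 20 with the compared groups only. In KO they were 17 under quantile normalization and 23 without the 2 replicates 4. For intact against ovx, 13 were called in WT without those 2 replicates and 3 in KO with the compared groups only. For E2 against intact in KO, 9 were called without the adipocyte-marker libraries. For the genotype difference in the effect of ovaries, 2 were called with the pseudocount 0.1, 1 with no filter, 8 under quantile normalization, 0 without the 2 replicates 4 and 2 without the adipocyte-marker libraries. Under quantile normalization E2 against ovx in WT reversed for Myl9 (-0.51), Actn1 (-0.34) and Pdlim7 (-0.26). The cause of these shifts was not tested.

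Replicate numbers do not pair the samples: only 2 numbers are shared per state, and deviations of same-numbered libraries correlated at 0.063 and 0.184 in intact, 0.339 and 0.078 in ovx and 0.171 and -0.032 in E2. With the replicate block in the fit, 24 members were called between genotypes in intact, 10 in E2 and 0 averaged over states. With the block 27 were called for E2 against ovx in KO, 10 for intact against ovx in KO, 13 for E2 against intact in WT, and 2 and 11 for the genotype differences in the E2 response and in the effect of ovaries. Actn1 was not among those called with the block in its genotype difference (-1.45, adjusted p = 0.0511), in KO against WT under E2 (-0.88, adjusted p = 0.0601) or in E2 against ovx in WT (0.58, adjusted p = 0.0548).

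A set term could not be fitted for intact against ovx or E2 within a genotype, but was fitted for the genotype differences. The compared groups only were not run for the average over states, which uses all groups.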
